A study of Mus musculus with 32 samples.

Results

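ATF4 and its amino acid stress genes were followed in mouse B cell lymphoma lines and normal B cells. The set held 36 of the 34797 gene names on the array: ATF4 itself, partner and downstream transcription factors, feedback regulators, amino acid enzymes, amino acid transporters and transfer RNA (tRNA) synthetases. Members were the probes that carry a listed gene symbol, and 12 members with several probes were represented by the brightest one. The rule names no value of these arrays. Earlier results of the same data were known when the list was drawn up, so the choice was not independent of them.

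Expression was measured on 32 Agilent 2-colour arrays. In the drug experiment, lymphoma lines 178119 and 28545 received the BTK inhibitor PCI-32765 (ibrutinib) at 100 nM for 1, 3, 6 or 24 h, and each array set treated cells (Cy5) directly against DMSO-treated cells of that line and time (Cy3). On the other 24 arrays, each sample (Cy5) was set against a common RNA pool (Cy3). The samples were 9 further lymphoma lines, germinal centre (GC) B cells, splenic B cells after anti-IgM (15 ug/ml), and untreated splenic B cells. All lymphoma lines were spleen-derived from ATMKO.CD3epsilonKO mice, which lack the DNA damage kinase ATM and a subunit of the T cell receptor complex. The anti-IgM samples were ATMKO.CD3epsilonKO cells at 3, 6 and 24 h and ATMWT.CD3epsilonKO cells at 6 h. One protocol line of both 6 h samples names 3 h instead. The untreated samples were 1 of each genotype. The GC B cells came from ATMWT mice immunised with SRBC, whose strain label names no CD3epsilon deletion. Lymphoma state, growth as a line and, against GC cells, ATM genotype cannot be told apart in these comparisons, and RNA of bulk samples cannot tell fewer cells of a type from less RNA per cell.

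ATF4 is a transcription factor whose protein is made when kinases that sense amino acid shortage, endoplasmic reticulum (ER) stress, haem shortage or double-stranded RNA phosphorylate the initiation factor eIF2alpha. It binds with partners such as C/EBP proteins and turns on genes for amino acid synthesis, uptake and tRNA charging, together with regulators such as TRIB3 and CHOP (Ddit3) that feed back on the response. In proliferating cells, growth signals that run through mTORC1 can also raise ATF4 output.

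The results turn on genes whose promoters can be read for the short element that ATF4 binds with C/EBP partners. The promoters of 6 members are shown, all from RefSeq on build GRCm38.p6, 5′ to 3′ in the direction of the gene. The window runs from 250 bases before to 50 bases after the gene start, and capitals mark TGATGNAA or its reverse, TTNCATCA. Trib3 (chr2:152344011-152344310, minus strand), Chac1 (chr2:119350992-119351291, plus strand), Asns (chr6:7693160-7693459, minus strand) and Pycr1 (chr11:120643699-120643998, minus strand) are shown. These carry the element and were among the members with the largest drop under PCI-32765. Gpt2 and Stc2 fell more than Asns and Pycr1 by the 24 h mean of both lines. They hold no such element in this window and are not shown. Slc1a4 (chr11:20332664-20332963, minus strand) is shown because it carries the element and leaned the other way. Slc7a11 (chr3:50443564-50443863, minus strand) carries it at 2 places and was the one member above background in anti-IgM samples and not in lymphoma lines.
Trib3: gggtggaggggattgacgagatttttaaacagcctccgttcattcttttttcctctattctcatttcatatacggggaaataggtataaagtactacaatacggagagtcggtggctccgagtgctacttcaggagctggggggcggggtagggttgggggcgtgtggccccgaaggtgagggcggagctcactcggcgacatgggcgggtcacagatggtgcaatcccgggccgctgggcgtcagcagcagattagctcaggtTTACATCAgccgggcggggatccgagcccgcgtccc
Chac1: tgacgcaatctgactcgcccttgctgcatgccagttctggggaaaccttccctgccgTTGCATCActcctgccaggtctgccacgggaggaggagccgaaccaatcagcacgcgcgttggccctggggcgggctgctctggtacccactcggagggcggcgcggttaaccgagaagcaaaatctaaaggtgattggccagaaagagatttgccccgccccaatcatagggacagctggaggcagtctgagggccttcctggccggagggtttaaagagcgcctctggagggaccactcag
Asns: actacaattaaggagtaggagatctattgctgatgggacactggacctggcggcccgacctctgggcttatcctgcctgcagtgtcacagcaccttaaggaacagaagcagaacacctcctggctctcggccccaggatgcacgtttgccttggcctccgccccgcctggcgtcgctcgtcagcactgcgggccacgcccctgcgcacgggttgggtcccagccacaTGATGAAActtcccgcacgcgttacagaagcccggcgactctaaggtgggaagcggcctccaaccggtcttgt
Pycr1: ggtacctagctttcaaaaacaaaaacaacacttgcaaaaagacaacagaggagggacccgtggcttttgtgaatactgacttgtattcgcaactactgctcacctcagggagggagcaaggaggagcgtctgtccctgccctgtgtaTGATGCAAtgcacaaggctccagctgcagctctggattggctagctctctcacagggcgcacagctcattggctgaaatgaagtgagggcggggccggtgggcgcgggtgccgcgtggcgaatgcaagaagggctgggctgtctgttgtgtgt
Slc1a4: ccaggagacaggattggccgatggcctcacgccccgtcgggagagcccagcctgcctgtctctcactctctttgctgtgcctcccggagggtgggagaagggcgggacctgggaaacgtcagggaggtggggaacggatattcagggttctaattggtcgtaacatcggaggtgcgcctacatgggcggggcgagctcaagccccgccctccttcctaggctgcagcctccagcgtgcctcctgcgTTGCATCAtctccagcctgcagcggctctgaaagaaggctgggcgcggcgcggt
Slc7a11: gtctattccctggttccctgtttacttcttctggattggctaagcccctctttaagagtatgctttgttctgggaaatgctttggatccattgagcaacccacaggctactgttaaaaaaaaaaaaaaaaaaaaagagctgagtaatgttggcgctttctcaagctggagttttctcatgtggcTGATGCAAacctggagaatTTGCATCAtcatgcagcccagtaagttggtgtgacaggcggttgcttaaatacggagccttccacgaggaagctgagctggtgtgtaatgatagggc

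The first base of the element lay 193 bases before the gene start in Chac1, 103 before it in Pycr1, 23 before it in Asns, 4 before it in Slc1a4, and 66 and 47 before it in Slc7a11. In Trib3 it lay 15 bases into the transcript. Of 28 members with a promoter entry, 11 (39.3%) held the element, against 4.51% of 27025 gene symbols with an entry. The others with it were Atf3, Nupr1, Aars, Gars and Vldlr. It is a letter match on either strand and not a measured binding site. The members were listed as ATF4 and amino acid stress genes, so the higher share among them is not independent of that choice. Of 9 members with the element that were tested at 24 h of PCI-32765, 7 fell (median log2 change -1.07), and of 17 without it 15 fell (median -0.79).

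PCI-32765 was followed by lower levels of most members, late and in both lines. After 24 h, 29 of 34 measured members were lower and 0 were higher by limma with Benjamini-Hochberg adjustment at 0.05, where 12.9% of all 19365 genes tested were lower and 12.6% were higher. The median member stood at -0.95 on the log2 scale, against 0.00 for all genes. Trib3, Chac1, Gpt2 and Stc2 fell most, by 3.92-fold to 6.3-fold. Slc7a11 and Vldlr had too little signal to enter this test. On all 8 arrays, 33 members were well above background in both channels, and Nupr1 was not.

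The drop built up with time. At 1 h, 0 members passed in either direction (0.874% of all genes did, and 3120 of 19225 had an unadjusted p under 0.05). At 3 h, 2 were lower, both transporters, where 4.25% of all genes were lower. At 6 h, 24 were lower and 0 higher, against 12.5% and 13% of all genes. Without the array of line 178119 at that time, 0 members passed at 3 h and 15 at 6 h, and without that of line 28545, 1 passed at 3 h. Counted without a test, both lines were below 0 for 3 of 27 members at 1 h (28.6% of all genes), 15 of 33 at 3 h (32.6%), 29 of 33 at 6 h (35.1%) and 32 of 34 at 24 h (35.9%). The member median moved alike in the lines. It was 0.07, -0.05, -0.61 and -0.89 at 1, 3, 6 and 24 h in line 178119, and 0.09, -0.16, -0.66 and -1.0 in line 28545.

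**Figure D1:**
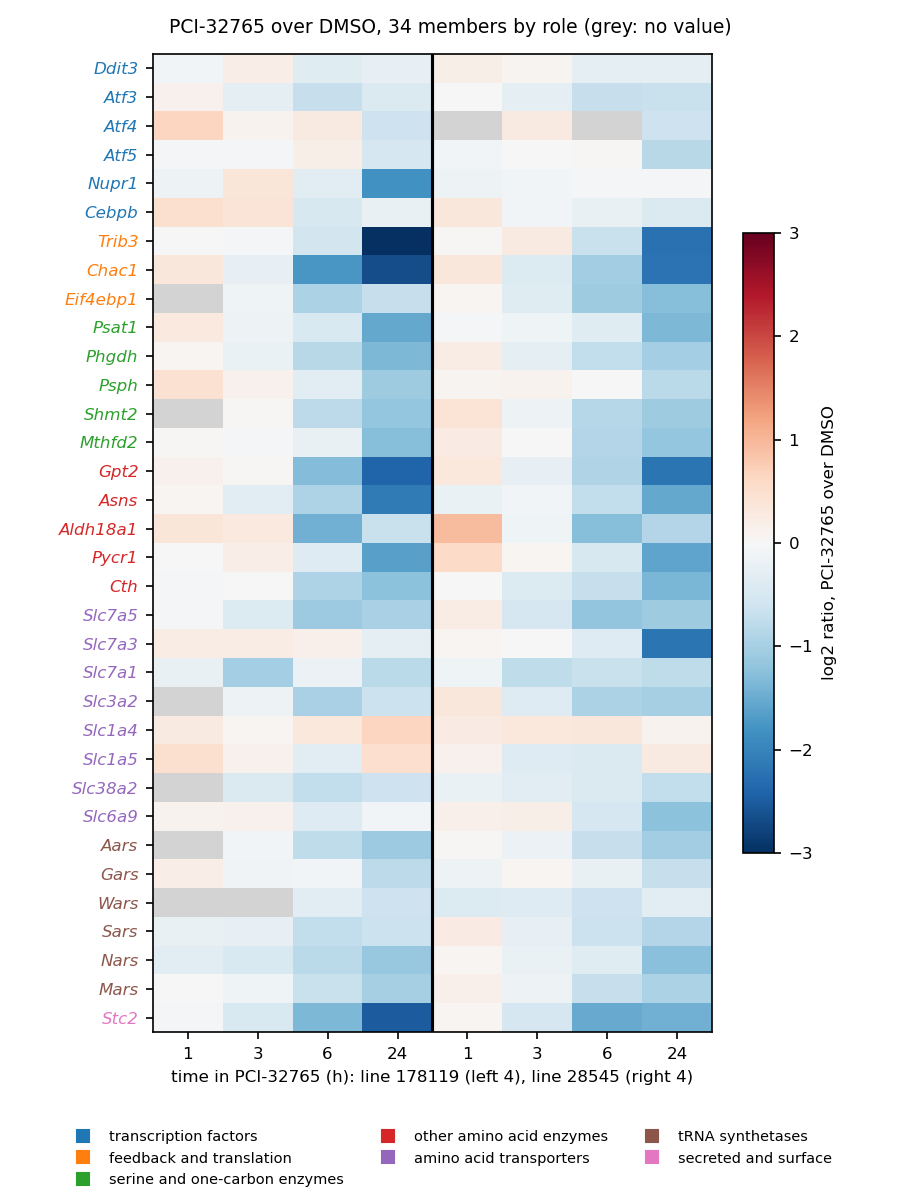
Log2 ratio of PCI-32765 over DMSO for the 34 measured members (rows, label colour by role) at 1, 3, 6 and 24 h in line 178119 (left) and line 28545 (right), 1 array per cell, colours ending at 3 and -3 and grey for no value. Columns darken toward blue at 6 and 24 h in both lines, while Slc1a4 is above 0 in all 8 cells.

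The change between times was tested as well. From 1 h to 24 h the drug-to-vehicle ratio fell for 25 members and rose for 0, against 3.92% of all genes lower, and for 16 without the 1 h array of line 28545. All PCI-32765 samples carried Cy5 and no dye was swapped, so a constant dye effect drops out of this difference and cannot be told apart from the drug in the ratio at 1 time. Chac1 had the largest drop between these times (-2.77 ± 0.23, SE, limma adjusted p = 0.000466), followed by Trib3 (-2.68 ± 0.24, adjusted p = 0.000764) and Gpt2 (-2.52 ± 0.17, adjusted p = 0.000249). Over the mean of 4 times, 25 members were lower and 1 was higher, against 16% and 17.3% of all genes.

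The feedback and translation regulators all fell at 24 h. Of all genes tested, 12.9% were lower at that time, the share to set beside each role below. TRIB3 is a pseudokinase that binds ATF4 and dampens its activity. Trib3 (mm9 chr2:152163161-152163220) read 0.01, -0.04, -0.54 and -3.08 at 1, 3, 6 and 24 h in line 178119, and 0.03, 0.28, -0.67 and -2.23 in line 28545. It thus sat near 0 until 3 h in both lines and was lowest at 24 h in both, with a mean at 24 h of -2.66 ± 0.17 (SE, 2 lines, limma adjusted p = 3.83e-05). CHAC1 degrades glutathione. Chac1 (mm9 chr2:119179990-119180049) read 0.34, -0.24, -1.75 and -2.66 in line 178119, and 0.33, -0.42, -1.04 and -2.21 in line 28545. Both lines were already more than 1 log2 unit below 0 at 6 h, and the mean at 24 h was -2.43 ± 0.16 (adjusted p = 4.76e-05). Eif4ebp1, which encodes a repressor of cap-dependent translation, fell by 1.0 at 6 h (adjusted p = 0.00161) and by 0.98 at 24 h (adjusted p = 0.00211).

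The enzymes of serine and one-carbon metabolism fell together, 5 of 5 at 24 h, between -0.94 and -1.45. PSAT1 is the aminotransferase of serine synthesis. Psat1 read 0.30, -0.15, -0.46 and -1.54 in line 178119, and -0.05, -0.14, -0.37 and -1.35 in line 28545. On this brighter probe most of the drop lay between 6 and 24 h in both lines (24 h: -1.45 ± 0.11, limma adjusted p = 7.43e-05). The second probe read -1.0 and -1.25 at 6 and 24 h in line 178119, and -0.55 and -1.42 in line 28545, so in line 178119 most of its drop lay by 6 h. Phgdh, the first enzyme of the serine pathway, stood at -1.19 (adjusted p = 0.000185), and Psph, the last, at -0.94 (adjusted p = 0.00114). Of the mitochondrial folate enzymes, Mthfd2 stood at -1.22 (adjusted p = 0.000641) and Shmt2 at -1.11 (adjusted p = 0.00028).

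The other amino acid enzymes also fell in 5 of 5 cases at 24 h. GPT2 is the mitochondrial alanine aminotransferase. Gpt2 read 0.13, 0.03, -1.29 and -2.40 in line 178119, and 0.31, -0.25, -0.90 and -2.20 in line 28545, and was lowest at 24 h in both (-2.30 ± 0.12, limma adjusted p = 1.5e-05). Asns, asparagine synthetase and a standard readout of ATF4, read 0.07, -0.33, -0.92 and -2.13 in line 178119, and -0.20, -0.09, -0.74 and -1.54 in line 28545. Its mean at 24 h was -1.83 ± 0.14 (adjusted p = 8.98e-05).

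Both proline enzymes fell, with different time courses. Pycr1, which closes the proline ring pathway, read -0.39 and -1.63 at 6 and 24 h in line 178119, and -0.48 and -1.59 in line 28545 (24 h: -1.61 ± 0.13, limma adjusted p = 0.000105). Its second, dimmer probe read -0.13 and -0.47 at 6 and 24 h in line 178119, and -0.13 and 0 in line 28545. Aldh18a1, which opens the proline ring pathway, read 0.37, 0.29, -1.45 and -0.67 in line 178119, and 0.96, -0.13, -1.28 and -0.88 in line 28545. It was therefore lowest at 6 h in both lines (-1.37 ± 0.15, adjusted p = 0.000422) and nearer to 0 at 24 h (-0.78 ± 0.15, adjusted p = 0.00608). Cth, the cystathionine lyase that makes cysteine, fell by 0.81 at 6 h (adjusted p = 0.00138) and by 1.29 at 24 h (adjusted p = 0.000189).

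Among the 8 measured amino acid transporters, 6 fell at 24 h (12.9% of all genes were lower). The 2 members called at 3 h, where 4.25% of all genes were lower, were Slc7a1 and Slc7a5. Their 3 h calls were lost in 2 and 4 of 14 alternative settings. Slc7a1 carries cationic amino acids. It read -0.22, -1.02, -0.17 and -0.81 in line 178119, and -0.12, -0.77, -0.66 and -0.76 in line 28545. It was lowest at 3 h in line 178119 and read about the same at 3 and 24 h in line 28545. The mean at 3 h was -0.89 ± 0.12 (limma adjusted p = 0.00357), and the sign was the same on 8 of 8 arrays. Slc7a5, the light chain of the large neutral amino acid transporter, fell by 0.45 at 3 h (adjusted p = 0.026), by 1.13 at 6 h (adjusted p = 0.00014) and by 1.02 at 24 h (adjusted p = 0.00028). Its second, dimmer probe read -0.68, -0.43 and -0.27 at 3, 6 and 24 h in line 178119, and -0.63, -0.45 and -0.72 in line 28545. The larger drop at 6 h than at 3 h was thus seen on the brighter probe alone. Slc3a2, the heavy chain that pairs with Slc7a5, fell by 0.96 at 6 h (adjusted p = 0.000839) and by 0.82 at 24 h. Slc38a2, a sodium-coupled neutral amino acid carrier, fell by 0.68 at 24 h (adjusted p = 0.00351).

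The neutral amino acid exchangers Slc1a4 and Slc1a5 were the members above 0 in both lines at 24 h. Slc1a4 read 0.28, 0.06, 0.32 and 0.64 in line 178119, and 0.25, 0.32, 0.34 and 0.11 in line 28545, so it was above 0 on 8 of 8 arrays. It passed over the mean of 4 times (0.29 ± 0.06, limma adjusted p = 0.00643) but not at 24 h alone (0.38, adjusted p = 0.0558). Both lines were already above 0 at 1 h. The change of Slc1a4 from 1 h to 24 h did not pass, and its sign turned in 2 of 14 alternative settings. Slc1a5, the main glutamine carrier of many proliferating cells, read 0.47, 0.13, -0.33 and 0.51 in line 178119, and 0.13, -0.38, -0.44 and 0.28 in line 28545. It was below 0 at 6 h and above 0 at 24 h in both lines and passed at no time (24 h: 0.40, adjusted p = 0.0593). Its second probe gave the same order, with -0.75 and 0.59 at 6 and 24 h in line 178119 and -0.72 and 0.19 in line 28545.

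The tRNA synthetases fell in 6 of 6 cases at 24 h. Nars, which charges asparagine tRNA, stood at -1.20 (limma adjusted p = 0.000538), Aars (alanine) at -1.07 (adjusted p = 0.000262) and Mars (methionine) at -0.97 (adjusted p = 0.000203). Sars (serine), Gars (glycine) and Wars (tryptophan) stood at -0.76, -0.74 and -0.46 (adjusted p = 0.00272, 0.00182 and 0.0287). Stc2, a secreted stanniocalcin induced by cell stress, read -0.06, -0.45, -1.35 and -2.50 in line 178119, and 0.05, -0.50, -1.51 and -1.44 in line 28545. It read about the same at 6 and 24 h in line 28545 and was lower at 24 h than at 6 h in line 178119 (24 h: -1.97 ± 0.19, adjusted p = 0.00028).

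The transcription factors moved least. Atf4 (mm9 chr15:80087902-80087961) read 0.64, 0.10, 0.27 and -0.63 at 1, 3, 6 and 24 h in line 178119, and 0.28 and -0.63 at 3 and 24 h in line 28545, where the 1 and 6 h spots were left out as scanner outliers. Both lines were below 0 at 24 h (-0.63 ± 0.10, limma adjusted p = 0.00456), a call that median centring ended (0.07, adjusted p = 0.825). The dimmer Atf4 probe read -0.14, -0.38, -0.38 and -0.73 in line 178119, and 0.13, -0.22, -0.53 and -0.97 in line 28545. The probes thus had opposite signs at 1, 3 and 6 h wherever both had a value, and the same sign at 24 h. Over the mean of 4 times the brighter probe gave 0.12 (adjusted p = 0.187) and the mean of both probes gave -0.22 (adjusted p = 0.0182).

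Ddit3, the gene of the pro-apoptotic factor CHOP, changed little. It read -0.09, 0.20, -0.37 and -0.24 in line 178119, and 0.18, 0.09, -0.26 and -0.30 in line 28545. Its small drop passed at 6 h (-0.32 ± 0.10, limma adjusted p = 0.0421) and not at 24 h (-0.27 ± 0.10, adjusted p = 0.0767). The 6 h call was lost in 8 of 14 alternative settings, with adjusted p up to 0.932. Ddit3 and Mars are neighbours, and their probes lie side by side (mm9 chr10:126732518-126732821 and chr10:126733940-126733999). Atf5 (-0.67, adjusted p = 0.00229) and Atf3 (-0.55, adjusted p = 0.00364), stress-induced relatives of ATF4, fell at 24 h, while Cebpb, a dimer partner of ATF4, stood at -0.32 (adjusted p = 0.0927).

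**Figure D2:**
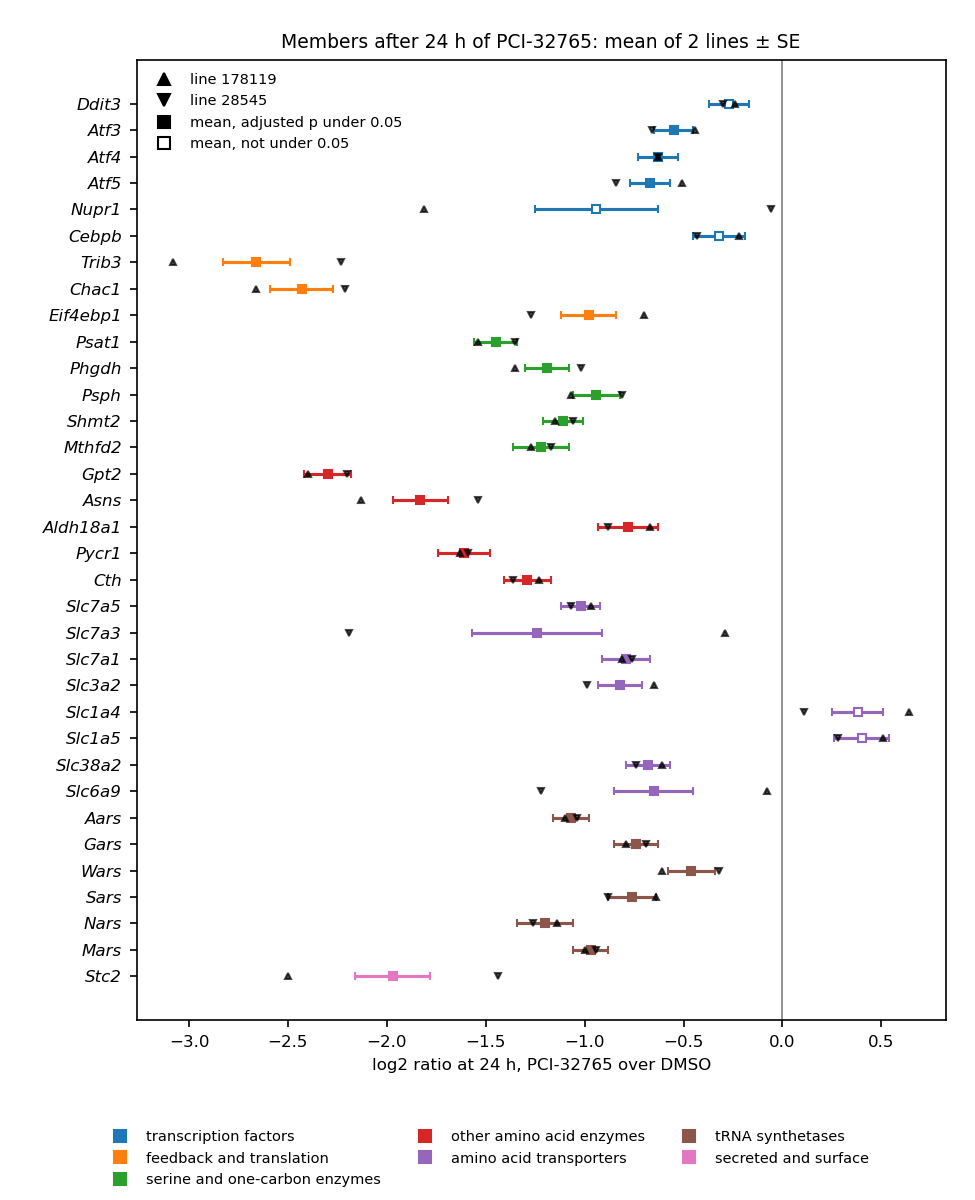
Log2 ratio of PCI-32765 over DMSO at 24 h for the 34 measured members: squares are the mean of 2 lines with the SE of the limma fit (filled where adjusted p was under 0.05), up triangles line 178119, down triangles line 28545. All but Slc1a4 and Slc1a5 lie left of 0 in both lines, and Nupr1, Slc7a3 and Slc6a9 show the widest gaps between lines.

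Among the 34 tested members, 3 showed the widest gaps between lines at 24 h. Nupr1, a small stress-induced chromatin protein, read -0.06 in line 28545 and -1.81 in line 178119. Its signal was well above background on 3 of 8 drug arrays in Cy5 and 4 of 8 in Cy3. Slc7a3, a second cationic amino acid transporter, read -2.19 in line 28545 and -0.29 in line 178119. Slc6a9, a glycine transporter, read -1.22 in line 28545 and -0.08 in line 178119. These 3 were picked after their values were seen. In the test of line 28545 minus line 178119 with time as a term, 0 members passed, as did 0% of all genes (limma, with 689 of 19115 genes at an unadjusted p under 0.05).

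The size of the drop depended on how the arrays were centred. Loess brings genes of each brightness to a median near 0, and 16 of 34 members were among the brightest 25% of genes. With plain median centring the median of all genes stood at 0.32 at 24 h (0.52 in the brightest 25%), and 15 members were lower and 2 higher, with a member median of -0.51. Of all calls, 97.7% were then in the higher direction, against 49.5% with loess. At 6 h the same centring left 5 members lower and 1 higher (member median -0.16, all genes 0.26). At 1 and 3 h, where loess called 0 and 2 members, it called 29 and 26 members higher and 0 lower, while the all-gene medians stood at 0.63 and 0.64 and the member medians at 0.89 and 0.81. Over the mean of 4 times it called 14 members higher and 4 lower, with an all-gene median of 0.45 and a member median of 0.20. Atf4 at 24 h and Slc7a1 and Slc7a5 at 3 h then lay above 0 (0.07, 0.09 and 0.36) and did not pass. The member median at 24 h thus lay below the all-gene median under both. With the scanner's own ratios, 27 members were lower at 24 h and 0 higher.

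The 24 h array of line 28545 had 85.5% of its Cy5 spots above background, against 45.6% to 53.0% on the other drug arrays. Without it, 26 members were lower and 1 higher at 24 h. Genes of the B cell list rose at the same time, 5 of 7 at 24 h with a median of 0.85. Of all genes, 12.6% were higher and 12.9% lower. Among other markers, 0 of 2 neutrophil, 0 of 4 erythroid, 0 of 2 NK cell and 1 of 5 macrophage markers changed. Of 6 T cell markers 2 rose and 2 fell, and no stromal marker had enough signal to be tested. The part of that array and of the B cell genes in the result was not tested.

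Other genes of the pathway were taken from fixed lists. A list of 10 genes held the eIF2alpha kinases, the phosphatase that reverses them, Eif2s1, Impact and Gcn1l1. At 3 h of PCI-32765, 2 of these genes were lower (4.25% of all genes). At 6 h, 3 were higher and 2 lower (13% and 12.5%). Over the mean of 4 times, 4 were higher and 3 lower (17.3% and 16%). At 24 h, 0 of these 10 passed in limma (3 had an unadjusted p under 0.05), with a median of -0.13. The counts of the next lists are for 24 h too, where 12.9% of all genes were lower and 12.6% higher. Of 15 further ATF4 targets, 10 fell and 1 rose (median -0.43), led by Vegfa, the vascular growth factor (-1.26 ± 0.12, limma adjusted p = 0.000269), and Mthfd1l, a mitochondrial folate enzyme (-0.99 ± 0.12, adjusted p = 0.000644). Of 15 tRNA synthetases outside the set, 8 fell and 0 rose (median -0.37), with Cars (cysteine) at -1.35 (adjusted p = 5.54e-05) and Tars (threonine) at -1.0 (adjusted p = 0.00021). Of 16 genes of the other ER stress arms, 6 fell and 1 rose (median -0.28). Xbp1, a factor of ER capacity and plasma cells, rose by 0.82 (adjusted p = 0.00273), and Hsp90b1, an ER chaperone, fell by 0.77 (adjusted p = 0.00372).

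The 9 lymphoma lines of the pool arrays, none of them treated and none a line of the drug experiment, had higher levels of many members than normal B cells. Against untreated splenic B cells, 21 of 35 measured members were higher in 9 lymphoma lines and 4 were lower, where 15.1% of all 21550 genes were higher and 21.6% lower. The member median was 1.5, against -0.01 for all genes. Without the untreated ATMKO sample, 15 members passed, and within slides 2 and 3, each alone, 9 and 11 did. Against anti-IgM-stimulated B cells, 18 were higher and 4 lower (21.6% and 25.1% of all genes), with a median of 1.25, and 10, 13 and 7 passed within slides 2, 3 and 4. That group joins samples of 3, 6 and 24 h, which were not alike. Their member medians to the pool were -1.19, -0.05 and -1.04 in ATMKO cells at 3, 6 and 24 h and 0.1 in ATMWT cells at 6 h. The lymphoma lines were not tested against the 6 h samples alone. Against GC B cells, 9 were higher and 1 lower (6.85% and 8.56% of all genes), with a median of 0.97. These comparisons share the lymphoma samples, and the GC group is 1 sample on 2 arrays, assumed by limma to vary like the other groups. With the first array of each sample in place of the mean of repeats, 1 member passed against GC cells, with no array left out 5 did, and with median centring 5.

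**Figure D3:**
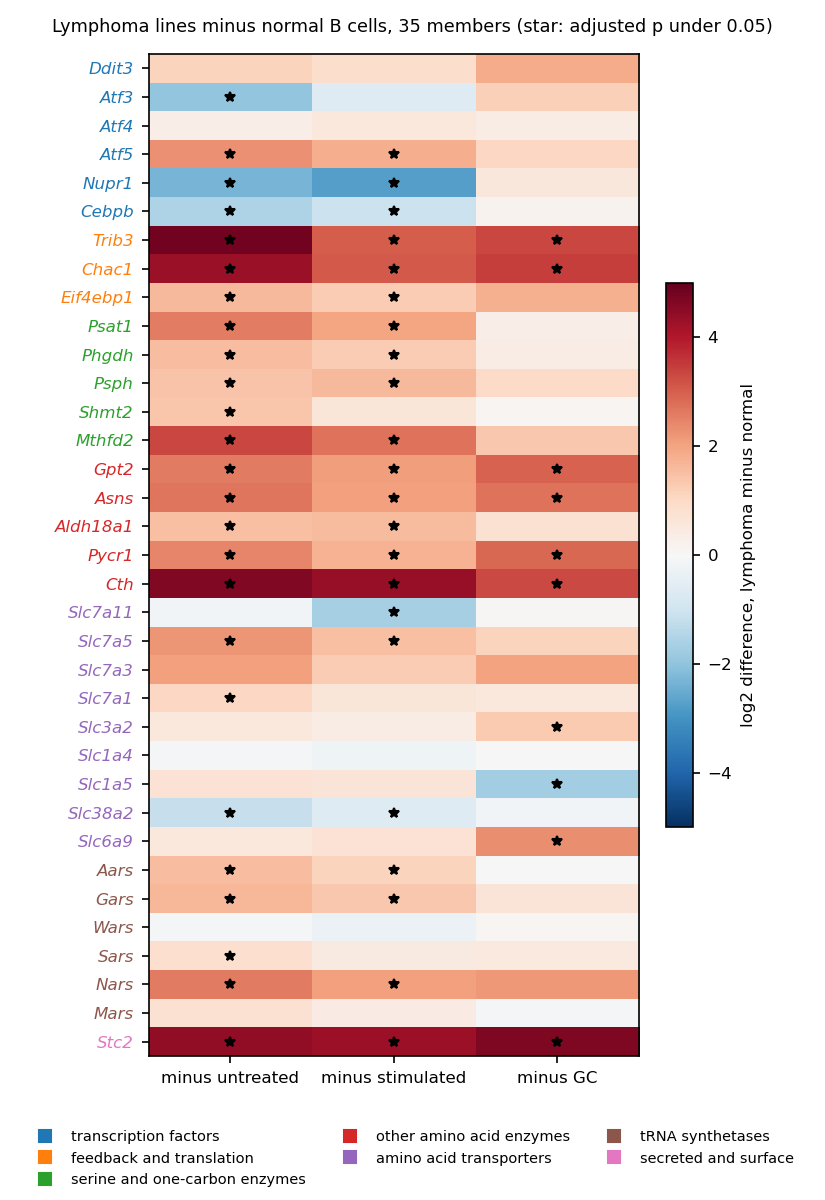
Log2 difference of 9 lymphoma lines minus 2 untreated, 4 anti-IgM-stimulated and 1 GC B cell sample (columns) for 35 members (rows, label colour by role), stars for limma adjusted p under 0.05. Trib3, Chac1, Cth and Stc2 are the darkest red in all 3 columns, and blue stands at Atf3, Nupr1, Cebpb and Slc38a2 against untreated cells.

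Trib3, Cth, Stc2 and Chac1 showed the widest gaps from untreated cells. Trib3 ran from 0.54 to 3.87 in the 9 lymphoma lines with a median of 1.57 (log2 ratio to the pool). It read -1.44 in GC cells, -3.10, -0.60 and -0.90 in ATMKO cells at 3, 6 and 24 h of anti-IgM, 0.13 in ATMWT cells at 6 h, and -2.72 and -3.10 in untreated ATMKO and ATMWT cells. Every line lay above every normal sample. The differences were 4.81 ± 0.77 from untreated cells (SE, limma adjusted p = 0.000204), 3.02 ± 0.60 from stimulated cells (adjusted p = 0.000765) and 3.34 ± 1.04 from GC cells (adjusted p = 0.0433).

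Chac1 ran from -0.29 to 3.12 with a median of 2.04 in lymphoma lines. It read -1.77 in GC cells, -2.04, -0.29 and -2.98 in ATMKO cells at 3, 6 and 24 h of anti-IgM, -0.30 in ATMWT cells at 6 h, and -2.49 and -2.78 in untreated ATMKO and ATMWT cells. All lines lay above GC and untreated cells, and 8 of 9 above all stimulated samples. It was higher in lymphoma than in untreated cells by 4.31 ± 0.81 (SE, limma adjusted p = 0.000732) and than in GC cells by 3.45 ± 1.09 (adjusted p = 0.0455). The calls against GC cells were lost in 15 of 27 alternative settings for Chac1 and in 13 of 27 for Trib3.

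Stc2 ran from -0.51 to 2.70 in lymphoma lines (median 1.83). It read -3.13 in GC cells, between -3.20 and -2.14 in the 4 stimulated samples, and -2.74 and -3.02 in untreated ATMKO and ATMWT cells. The lowest line lay above the highest normal sample. The limma differences were 4.42 ± 0.63 from untreated cells (adjusted p = 6.78e-05), 4.27 ± 0.48 from stimulated cells (adjusted p = 5.14e-06) and 4.68 ± 0.85 from GC cells (adjusted p = 0.00188).

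The amino acid enzymes were above both untreated samples in every line with a value, which was 8 of 9 lines for Shmt2 and all 9 for the others. Cth ran from 0.43 to 2.25 in lymphoma lines (median 1.41). It read -1.87 in GC cells, between -3.02 and -2.74 in stimulated samples, and -3.13 and -3.27 in untreated ATMKO and ATMWT cells. Every line lay above every normal sample, by 4.64 ± 0.30 over untreated cells (SE, limma adjusted p = 3.17e-08), 4.35 ± 0.23 over stimulated cells (adjusted p = 2.22e-09) and 3.31 ± 0.41 over GC cells (adjusted p = 0.000106). Asns ran from 0.42 to 2.60 in lymphoma lines (median 1.21). It read -1.46 in GC cells, -1.56, 0.16 and -2.11 in ATMKO cells at 3, 6 and 24 h of anti-IgM, 0.39 in ATMWT cells at 6 h, and -1.26 and -1.53 in untreated ATMKO and ATMWT cells. The lowest line lay just above the stimulated sample with the highest Asns, and the differences were 2.66 ± 0.58 from untreated (adjusted p = 0.0023), 2.04 ± 0.45 from stimulated (adjusted p = 0.00172) and 2.72 ± 0.79 from GC cells (adjusted p = 0.0303).

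Gpt2 and Pycr1 were higher in lymphoma than in GC cells by 2.95 and 2.88 (limma adjusted p = 0.00555 and 0.0061). Of the serine and one-carbon enzymes, 5 of 5 were called higher than in untreated cells (15.1% of all genes) and 4 of 5 than in stimulated cells (21.6%). Against the 1 GC sample 0 of 5 were (6.85%). Phgdh, Psph and Mthfd2 still lay above that sample in 9 of 9 lines, Psat1 in 8 of 9 and Shmt2 in 7 of 8. Mthfd2 ran from 0.94 to 2.24 in lymphoma lines (median 1.27). It read 0.00 in GC cells, -2.25, -0.58 and -2.10 in ATMKO cells at 3, 6 and 24 h of anti-IgM, -0.54 in ATMWT cells at 6 h, and -2.02 and -1.94 in untreated ATMKO and ATMWT cells. The GC sample lay above the other normal samples and below every line. The difference was 3.34 ± 0.41 from untreated cells (adjusted p = 1.87e-05) and 2.72 ± 0.32 from stimulated cells (adjusted p = 6.56e-06), and it did not pass against GC cells (1.36, adjusted p = 0.118).

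**Figure D4:**
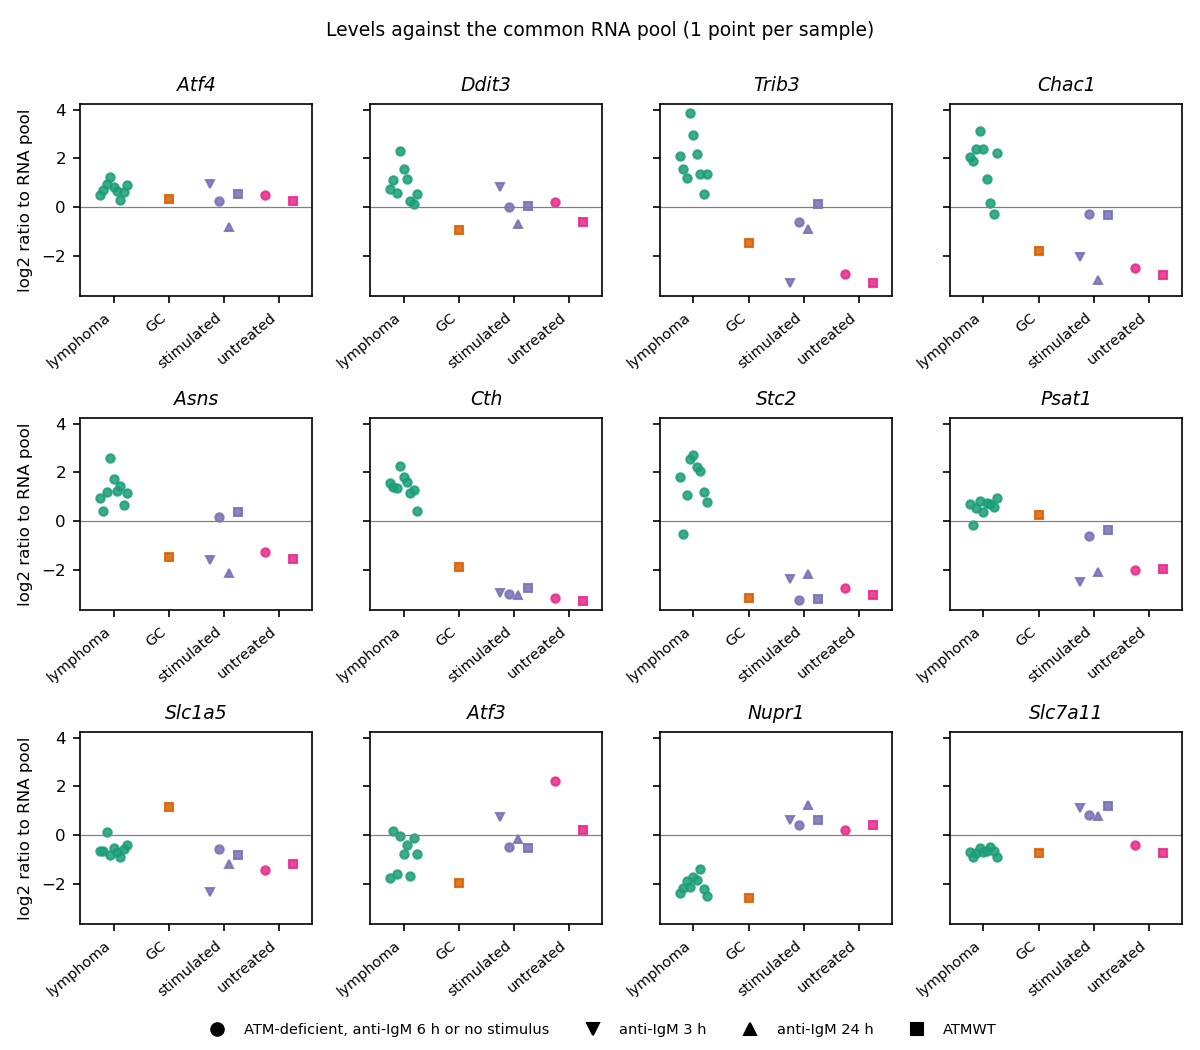
Log2 ratio to the RNA pool of 12 members in lymphoma lines, GC B cells, anti-IgM-stimulated and untreated splenic B cells, 1 point per sample after averaging repeat arrays; circles ATM-deficient at 6 h of anti-IgM or unstimulated, triangles 3 h (down) and 24 h (up), squares ATMWT. Lymphoma points lie above all normal samples for Trib3, Cth and Stc2, below both untreated samples for Atf3 and Nupr1, and Slc7a11 is above 0 in stimulated samples alone.

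Transporters and tRNA synthetases were less uniform. Slc7a5 was higher in lymphoma than in untreated cells by 2.20 ± 0.42 (limma adjusted p = 0.000785), with 9 of 9 lines above both untreated samples, and Slc7a1 by 1.05 (adjusted p = 0.0251). Slc3a2 and Slc6a9 passed against GC cells alone (1.31 and 2.31, adjusted p = 0.0309 and 0.0324). Of the synthetases, Nars was highest, by 2.58 over untreated and 2.04 over stimulated cells (adjusted p = 0.00302 and 0.00184), while Wars did not pass in any of the 3 comparisons (-0.09, -0.31 and 0.11). That brighter Wars probe averaged -0.37 in lymphoma lines and -0.28 in untreated cells. The dimmer Wars probe averaged 0.48 and -0.25 and was not tested by itself.

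Slc1a5 was the one member lower in lymphoma than in GC cells. It ran from -0.88 to 0.14 in lymphoma lines (median -0.63). It read 1.18 in GC cells, -2.33, -0.55 and -1.17 in ATMKO cells at 3, 6 and 24 h of anti-IgM, -0.80 in ATMWT cells at 6 h, and -1.40 and -1.17 in untreated ATMKO and ATMWT cells. The GC sample lay above every other sample, and the lymphoma difference from it was -1.74 ± 0.46 (SE, limma adjusted p = 0.0189). In GC cells Slc1a5 was higher than in untreated cells by 2.47 ± 0.53 (adjusted p = 0.00504).

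Slc7a11, the cystine carrier, was well above background on 0 of 11 lymphoma, 0 of 2 GC, 5 of 5 stimulated and 0 of 4 untreated arrays. Its level in lymphoma lines therefore has only a bound, with stimulated cells at least 2.48-fold higher. The bound itself was not tested. The limma call against stimulated cells (adjusted p = 2.04e-08) used lymphoma values not well above background, so the size of that difference is not known. Slc7a11 read between -0.90 and -0.46 in lymphoma lines, against 1.1, 0.84 and 0.81 in ATMKO cells at 3, 6 and 24 h of anti-IgM and 1.19 in ATMWT cells at 6 h. Vldlr, a lipoprotein receptor, was well above background on 1 of 11 lymphoma arrays and was not tested.

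The brighter Atf4 probe did not pass between lymphoma lines and any normal group. It ran from 0.31 to 1.25 in lymphoma lines (median 0.70). It read 0.35 in GC cells, 0.97, 0.25 and -0.82 in ATMKO cells at 3, 6 and 24 h of anti-IgM, 0.56 in ATMWT cells at 6 h, and 0.51 and 0.28 in untreated ATMKO and ATMWT cells. The groups overlapped, and the limma differences were 0.35 ± 0.33 from untreated (adjusted p = 0.437), 0.51 ± 0.25 from stimulated (adjusted p = 0.113) and 0.39 ± 0.44 from GC cells (adjusted p = 0.623). The dimmer Atf4 probe averaged 0.70 in lymphoma lines and -0.18 in untreated cells and was not tested by itself, against 0.75 and 0.40 for the brighter one. Ddit3 ran from 0.12 to 2.31 in lymphoma lines (median 0.74). It read -0.94 in GC cells, 0.83, 0.00 and -0.68 in ATMKO cells at 3, 6 and 24 h of anti-IgM, 0.04 in ATMWT cells at 6 h, and 0.23 and -0.58 in untreated ATMKO and ATMWT cells. Its differences of 1.11, 0.88 and 1.87 from untreated, stimulated and GC cells missed the threshold (adjusted p = 0.0842, 0.0614 and 0.065). Atf5 was higher than in untreated cells by 2.28 (adjusted p = 0.00321).

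Atf3, Cebpb, Nupr1 and Slc38a2 were lower in lymphoma than in untreated cells, by limma. Nupr1 ran from -2.50 to -1.39 in lymphoma lines and read -2.56 in GC cells, between 0.43 and 1.25 in stimulated samples, and 0.23 and 0.44 in untreated ATMKO and ATMWT cells. Lymphoma and GC values lay far below all splenic samples (lymphoma minus untreated -2.34 ± 0.25, adjusted p = 4.84e-06, and minus stimulated -2.74 ± 0.19, adjusted p = 4.07e-08). Atf3 ran from -1.73 to 0.19 in lymphoma lines, against 2.24 and 0.22 in untreated ATMKO and ATMWT cells (-1.99 ± 0.57, adjusted p = 0.013). Cebpb differed by -1.55 (adjusted p = 0.00631) and Slc38a2 by -1.14 (adjusted p = 8.82e-05).

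Neutrophil, erythroid and macrophage markers also read lower in lymphoma lines and GC cells than in untreated cells, by their medians. In lymphoma lines the median log2 ratios to the pool were -6.03 to -5.50 for neutrophil, -3.26 to -2.37 for erythroid and -2.12 to -1.34 for macrophage markers, and in GC cells -5.94 to -5.92, -3.16 to -3.14 and -1.84 to -1.82. On stimulated arrays they were 0.23 to 1.63, -1.73 to 1.40 and -0.75 to 0.39, and on untreated arrays 1.32 to 1.52, 1.31 to 1.93 and 0.51 to 1.24. All 6 neutrophil, 6 erythroid and 7 macrophage markers were well above background on every untreated array, and all 7 B cell markers on every array of each group. The 6 neutrophil markers were so on every lymphoma, GC and stimulated array too. On lymphoma arrays 4 to 6 erythroid and 3 to 6 macrophage markers were, and on GC arrays 5 and 6. The part of these markers in the values of Atf3, Cebpb and Nupr1 was not tested.

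Between GC and untreated cells, 3 members were higher and 3 lower, against 6.68% and 10.3% of all genes. Slc1a5, Psat1 (2.22 ± 0.67, limma adjusted p = 0.0333) and Mthfd2 (1.98 ± 0.64, adjusted p = 0.0476) were higher. Atf3 (-3.19 ± 0.89, adjusted p = 0.0233), Nupr1 (-2.90 ± 0.39, adjusted p = 0.000163) and Slc38a2 (-1.03 ± 0.26, adjusted p = 0.0139) were lower. Atf4 and Ddit3 stood at -0.04 and -0.76 (adjusted p = 0.969 and 0.557). The Mthfd2 call was lost in 16 of 28 alternative settings. Without the untreated ATMKO sample 2 members passed, and with the first array of each sample 0 did.

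The lymphoma lines differed among themselves. The member median to the pool ran from 0.31 in line 1004 to 0.99 in line 1010, while the all-gene medians lay between -0.07 and -0.03. Line 1010 was the highest line for 17 of 33 members with a value in every line (11.2% of all genes), and its repeat arrays had member medians of 0.88 and 0.97. Line 1004 was the lowest for 11 of 33 (14.2% of all genes) and line 1036 for 9 (17.3%). Trib3 stood at 3.87 in line 1010 and at 0.54 in line 1036, and Slc7a3 ran from -0.86 in line 1036 to 3.52 in line 1013.

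Anti-IgM, which engages the B cell receptor, was followed by higher readings of many members at 6 h and of few at 3 or 24 h. In ATMKO cells, 2, 15 and 4 of 35 members were more than 1 log2 unit higher than in untreated cells at 3, 6 and 24 h, against 2.09%, 3.33% and 3.85% of all genes, and in ATMWT cells at 6 h 12 were, against 3.5%. The member medians were -0.23, 0.91 and -0.24 at these times in ATMKO samples and 0.87 in the ATMWT sample. Each difference compares 1 sample with 1 sample and has no replicate check. Over all 4 stimulated samples, limma with Benjamini-Hochberg adjustment called 0 members and 0% of 22091 genes (1663 had an unadjusted p under 0.05).

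**Figure D5:**
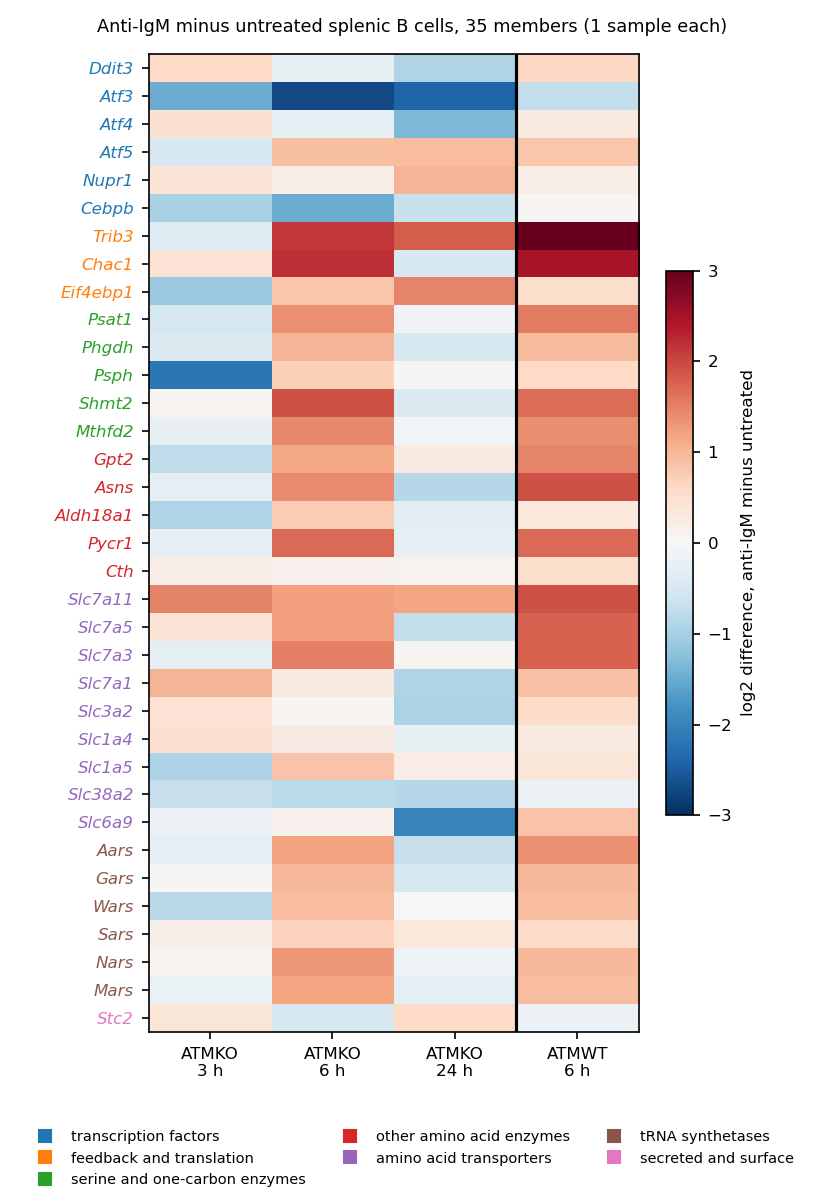
Log2 difference of each anti-IgM sample minus the untreated sample of its genotype for 35 members (rows, label colour by role), 1 sample each. Red fills most of both 6 h columns and is sparse at 3 and 24 h, with Trib3, Chac1, Asns, Shmt2 and Pycr1 among the darkest at 6 h.

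With the 6 h samples alone (2 stimulated against 2 untreated, 1 residual degree of freedom), 23 members were higher and 1 lower, where 12.1% and 16.6% of all genes were. Trib3 was 2.12 higher in ATMKO cells and 3.23 higher in ATMWT cells (mean 2.67 ± 0.27, SE, limma adjusted p = 0.00419). Chac1 was 2.20 and 2.48 higher in those genotypes (2.34 ± 0.13, adjusted p = 0.00216). Shmt2 (1.79), Pycr1 (1.71), Asns (1.67), Slc7a3 (1.64) and Slc7a5 (1.5) were also higher, with adjusted p of 0.00246 to 0.00482. Slc7a11 was among the members higher but was well above background on 0 of 4 untreated arrays, so its difference has only a bound. Atf3 was lower (-1.72, adjusted p = 0.0434), and Atf4 and Ddit3 did not pass (0.01 and 0.20, adjusted p = 0.976 and 0.549). Stc2 and Cth, far above all normal samples in lymphoma lines, stood at -0.32 and 0.34 and did not pass (adjusted p = 0.127 and 0.143).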

How the data were processed

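RNA was measured on 32 mouse Agilent 2-colour arrays of 1 design on 4 slides. Per the file headers, the deposited intensity values (mean and background signals) and log10 ratios of red over green came from Feature Extraction 10.1.1.1. The submitters' processing notes name Feature Extraction 9.1 and limma. The log10 values of the authors' deposited series matrix matched the scanner's own ratios within 0.0005 for nearly all spots above background in both channels, with medians from -0.094 to 0.058, so they run red over green and are not centred.

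Intensities were corrected in limma 3.58.1 (R 4.3.3) by normexp with an offset of 50, then by loess within arrays. Control spots and scanner outliers had weight 0 and were left out, and spots of 1 probe were averaged into log2 ratios computed from the deposited signals. A gene entered a fit if at least 0.5 of its arrays showed the probe well above background in Cy5 or Cy3. A gene with a missing spot stayed in where the fit could be estimated. Repeat arrays, technical repeats per the series' design except that 1 of the GC arrays is called biological there, were averaged as 1 sample. The first GC array (r = 0.0641 and 0.066 with the others) and the first array of line 1039 (r = 0.3) were left out. The first ATMKO untreated array (r = 0.638 and 0.639) was kept.

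Drug effects were fitted on 8 arrays with a mean per time (4 residual degrees of freedom), and cell types on 16 samples (12 residual degrees of freedom). Anti-IgM was fitted on 6 splenic samples (3 residual degrees of freedom). Moderated p-values were adjusted by Benjamini-Hochberg over all genes at 0.05. No label says that samples came from separate animals or cultures beyond the named lines, so p-values measure the spread between these samples. The arrays of a time are the 2 cell lines, so a fit with line as a block was run as an alternative. Deviations of a line correlated between times at -0.346 to 0.229 across 17722 genes.

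On simulated data, 169 of 200 changes of 1 log2 unit were recovered for the drug at 24 h (17722 genes, 3 false calls). For lymphoma against stimulated cells 123 of 200 were (21362 genes, 14 false calls). The share of Cy5 spots above background was 49.95% to 60.67% on the pool arrays used, and the number of arrays limits precision. Atm, the deleted gene, read lower in lymphoma lines (medians -0.94 and -1.28 for 2 probes) than in GC cells (1.12 and 1.04) and untreated ATMWT cells (0.25 and 0.42), and was above background on all these arrays. Where the probes lie relative to the deletion was not tested, nor was it for Cd3e, which was above background on all 11 lymphoma arrays.

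Members and lists were chosen with earlier results of these data known. Full statistics went to at most 8 members per comparison with the largest change among those past the threshold, and to Atf4 and Ddit3. At most 2 genes of each other list were named. Other members given with values, such as Slc1a4, Slc1a5, Nupr1 and Slc7a11, were chosen after their values were seen. Probe positions are those of the files (mm9), and promoters those of RefSeq (GRCm38.p6), with 8 members having no entry in the table. Alternatives were other background corrections, centring, filters, probe choice, repeat handling, slide or line blocks, and leaving out samples.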

Additional observations from a re-analysis of the deposited data

Results flagged for a closer look

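Within the 9 lymphoma lines and the other groups large enough to test, 3 of 70 groups of values held a sample far from the others, where chance gives about 1 in 20. Mthfd2, the mitochondrial folate enzyme, stood at 2.24 in line 1010, with the next line at 1.51 (log2 ratio to the pool). Cebpb, a dimer partner of ATF4, stood at 0.60 in line 1010, with the next line at -0.39. Slc1a5, the glutamine carrier, stood at 0.14 in line 1007, with the next line at -0.41.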

How the results depend on the processing

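Counts are members past the limma threshold. With median centring, 29, 26, 6 and 17 members passed at 1, 3, 6 and 24 h of PCI-32765 and 5 in lymphoma against GC cells. Of all genes, 11874, 11926, 4342 and 5091 passed at those times, with 93.1% to 99.9% of these calls higher. Over the mean of 4 times it gave 14 members higher and 4 lower (median 0.20), against 1 and 25 (median -0.42) with loess. All genes had 14199 higher and 113 lower (median 0.45), against 3304 and 3039 (median 0.01) with loess. The direction against 0 there depends on the scaling, while the member median lay below the all-gene median under both. Among the genes named by rule, median centring turned Asns (0.06), Slc7a1 (0.17) and Ddit3 (0.41) above 0 over the mean of 4 times. It also turned Slc7a1 (0.09) and Slc7a5 (0.36) at 3 h and Atf4 (0.07) at 24 h. The mean of both Atf4 probes gave -0.22 over the mean of 4 times, because the second probe read lower. With cell line as a replicate block, 26 members passed over the mean of 4 times, 0 at 1 h, 2 at 3 h, 23 at 6 h, 31 at 24 h and 23 for 24 h minus 1 h, so the pairing moved no count by over 1.5 times. Leaving out single arrays or samples gave 19 to 28 members over the mean of 4 times, 0 at 1 h, 0 to 3 at 3 h, 15 to 26 at 6 h, 27 to 29 at 24 h and 16 to 25 for 24 h minus 1 h. It gave 15 to 26 for lymphoma against untreated, 22 to 25 against stimulated and 8 to 13 against GC cells, 2 to 8 for GC against untreated cells, and 0 for stimulated against untreated cells. The lowest were 15 and 2 without the untreated ATMKO sample. Leaving out only the first array of that sample, chosen after seeing the data, gave 25 for lymphoma against untreated, 7 for GC against untreated and 0 for stimulated against untreated cells. Within slides 2 and 3, 9 and 11 members passed for lymphoma against untreated cells, and within slides 2, 3 and 4, 10, 13 and 7 against stimulated cells, with fewer samples in each. Stimulated against untreated cells could not be fitted within slides 2 and 4, which leave no residual degrees of freedom. The first array of each sample gave 1 member against GC cells and 0 for GC against untreated cells, and all arrays gave 5 against GC cells. The 6 h samples alone gave 24 for stimulated against untreated cells. Other causes of these shifts were not tested. For the genes named by rule in each comparison, not all members, 1617 of 1738 alternative values kept their direction and side of the threshold, 101 lost the call, 13 gained one and 7 turned direction. Slc7a11, Vldlr and, on the drug arrays, Nupr1 were limited by signal near background.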
